A study of Mus musculus with 9 samples.

Results

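The 48 genes described here act in mitosis, from the kinases that start it to the proteins that separate the daughter cells. They were given as a list of gene symbols and matched by symbol to the deposited table of normalized expression, where 48 of 48 were found among 20778 genes. Bulk RNA sequencing covered 9 libraries, 3 in each of 3 groups. All groups hold GL261, a mouse glioblastoma line labelled with mCherry. The tumour group was resected from brains of immunocompetent male C57BL/6 mice, 7 weeks old, on day 14 after 50000 GL261 cells were placed in the striatum, and the protocol names 5 mice. Both cultures were a penta-culture, GL261 mixed with freshly isolated astrocytes, microglia, pericytes and endothelial cells from brains of male C57BL/6 mice aged 6 to 10 weeks. The 2D culture grew on a dish and the 3D bioink in a fibrin gel, with GL261 at 1000000 cells per ml in both, and the time in culture is not given in the sources used here. The bioink alone was digested, for 3 h with collagenase II, before RNA was extracted. The labels do not say whether the 3 libraries of a group came from separate mice or cultures, and the protocol mentions loading in triplicate. The p-values below therefore reflect library-to-library spread, which may be technical.

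A cell enters mitosis when CDK1, bound to cyclins A and B and freed of its inhibitory phosphates by CDC25 phosphatases, phosphorylates many proteins. Condensin then compacts the chromosomes, kinesins build the spindle, and the spindle checkpoint holds the cell until every kinetochore is attached. The anaphase-promoting complex (APC/C) with CDC20 then destroys securin and cyclin B, separase cuts cohesin, and the cleavage furrow divides the cell. Most of these genes are transcribed in late S and G2 phase under B-MYB, FOXM1 and the MuvB complex, which reach promoters through the cell cycle homology region (CHR), and through NF-Y, which binds CCAAT boxes. In bulk tumour RNA they are read as a measure of proliferation, Mki67 above all.

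Promoter windows of 300 bases, 250 before and 50 after the transcription start, were taken from RefSeq (GRCm38.p6) and matched 40 of the 48 genes. The CHR letters TTTGAA, on either strand, or TTCGAA, which reads the same on both, lay in 31 of these 40 promoters (77.5%), against 16.8% of the 10773 tested genes with a window. CCAAT, searched on both strands, occurred at least 2 times in 47.5% of them, against 16.2%. Both features stood in the same window in 42.5% of the mitosis genes and in 2.75% of the tested genes. Overlapping copies of these motifs were found in 2 members. The 9 members without the CHR letters were Nuf2, Nek2, Ncaph, Mybl2, Cenpe, Mad2l1, Pttg1, Birc5 and Ccnb1. The windows below belong to 4 genes that were highest in 2D culture (Plk1, Ccnb1, Cdc20 and Top2a) and to 2 whose group means lay within 1.28 times of each other (Mki67 and Cenpf). They are written 5′ to 3′ along the gene's own strand, with every CHR and CCAAT match in capitals (ATTGG and TTCAAA are the same motifs on the other strand).
Plk1, chr7:122159185-122159484, plus strand: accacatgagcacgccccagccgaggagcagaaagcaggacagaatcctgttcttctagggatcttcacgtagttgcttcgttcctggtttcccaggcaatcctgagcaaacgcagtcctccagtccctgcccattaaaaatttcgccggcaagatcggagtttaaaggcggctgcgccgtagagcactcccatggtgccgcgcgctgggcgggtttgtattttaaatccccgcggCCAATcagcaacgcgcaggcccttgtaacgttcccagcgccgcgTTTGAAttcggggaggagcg
Ccnb1, chr13:100786437-100786736, minus strand: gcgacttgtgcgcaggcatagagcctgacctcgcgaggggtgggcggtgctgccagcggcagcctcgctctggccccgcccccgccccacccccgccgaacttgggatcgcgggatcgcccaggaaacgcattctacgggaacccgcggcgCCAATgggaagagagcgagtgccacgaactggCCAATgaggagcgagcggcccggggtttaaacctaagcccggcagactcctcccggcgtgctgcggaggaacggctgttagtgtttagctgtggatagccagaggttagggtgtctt
Cdc20, chr4:118437294-118437593, minus strand: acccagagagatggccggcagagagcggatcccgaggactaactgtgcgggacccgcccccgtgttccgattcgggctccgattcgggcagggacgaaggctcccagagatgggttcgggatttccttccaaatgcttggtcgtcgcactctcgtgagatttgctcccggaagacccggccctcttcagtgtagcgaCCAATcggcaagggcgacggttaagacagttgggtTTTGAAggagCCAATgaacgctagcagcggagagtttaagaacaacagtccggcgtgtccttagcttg
Top2a, chr11:99024140-99024439, minus strand: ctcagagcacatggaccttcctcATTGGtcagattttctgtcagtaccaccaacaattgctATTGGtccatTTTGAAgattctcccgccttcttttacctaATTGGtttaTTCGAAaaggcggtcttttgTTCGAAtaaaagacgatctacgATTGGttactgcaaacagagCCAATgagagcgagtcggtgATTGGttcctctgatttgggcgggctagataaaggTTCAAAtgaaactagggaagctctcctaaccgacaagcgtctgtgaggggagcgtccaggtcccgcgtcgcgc
Mki67, chr7:135716330-135716629, minus strand: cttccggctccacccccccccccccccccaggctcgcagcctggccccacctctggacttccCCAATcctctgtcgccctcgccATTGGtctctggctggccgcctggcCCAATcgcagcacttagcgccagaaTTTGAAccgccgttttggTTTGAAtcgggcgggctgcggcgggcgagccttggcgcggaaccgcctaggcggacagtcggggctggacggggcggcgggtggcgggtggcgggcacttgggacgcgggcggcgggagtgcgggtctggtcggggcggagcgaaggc
Cenpf, chr1:189688037-189688336, minus strand: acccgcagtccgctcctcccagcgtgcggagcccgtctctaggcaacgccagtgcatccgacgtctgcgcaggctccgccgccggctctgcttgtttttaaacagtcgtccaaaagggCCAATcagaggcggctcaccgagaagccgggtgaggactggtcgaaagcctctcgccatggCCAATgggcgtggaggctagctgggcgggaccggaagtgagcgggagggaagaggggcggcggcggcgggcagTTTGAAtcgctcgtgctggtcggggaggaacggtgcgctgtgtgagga
In the Cdc20 window the CHR letters started 18 bases before the transcription start, between CCAAT copies 53 and 8 bases before it. Mki67 held CHR letters 116 and 98 bases upstream and 3 CCAAT copies. The Top2a window held 4 CHR matches and 6 CCAAT matches. These matches are letters in a window, and binding was not measured.

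The values are counts that the authors normalized and rounded to whole numbers, so levels are compared between libraries of 1 gene and not between genes. Each gene was tested with limma on log2(value + 1), with p adjusted over 13773 genes and a threshold of 0.05; "called" below means past it. The comparisons share libraries in pairs, so they are not independent of each other. Library sums of the values ran from 16320090 to 16388074 for tumours, from 15572800 to 15711632 for 2D culture and from 13548461 to 13683978 for the bioink. These sums follow the normalization, and the read depth is unknown. Bioink replicate 1 stood apart at low values: 67 genes were listed at 1 in it, against 367 to 580 in the other libraries. Spans of 12 members overlap another protein-coding gene (Ccna2, Cdc25b, Cdc25c, Cdca8, Bub3, Kif20a, Kif4, Prc1, Cdc20, Ube2c, Ncapg and Foxm1), and whether reads were assigned by strand is not given in the sources used here, so their values are less certain. Immune markers were highest in the tumours. Summed values of 14 microglia markers lay at 48401 to 52264 in the tumours, 708 to 778 in 2D culture and 1240 to 1277 in the bioink, with C1qa at 0 in 2D culture and Fcrls at 0 in the bioink. For 12 macrophage and monocyte markers the sums were 39723 to 41112, 211 to 255 and 755 to 948, with Ly6c2 at 0 in both cultures and Adgre1 at 0 in 2D culture. Fibroblast markers (7) summed to 12892 to 13714 in the tumours, 11898 to 12471 in 2D culture and 22439 to 24248 in the bioink. Of these, 7 of 7 were called higher in the bioink than in 2D culture (27.0% of all tested genes were). In 2D culture against tumours 4 of the 7 were called higher and 1 lower (27.3% and 27.0% of all tested genes). A sum is weighted to its highest genes, so calls of single markers can differ from it. Pericyte markers (10) summed to 4388 to 4844, 1132 to 1148 and 2839 to 3067, with Kcnj8 at 0 in 2D culture. Neuron markers (8) summed to 4807 to 5048, 1689 to 1781 and 919 to 1183, with Rbfox3 at 0 in tumours and 2D culture, Nefl at 0 in tumours and Slc17a7 at 0 in 2D culture. Only 2 of them were tested, and in the bioink against tumours 1 was called higher and 1 lower. Endothelial markers (12) summed to 6113 to 6450, 4911 to 5267 and 5835 to 8114, with Erg at 0 in tumours and 2D culture. Astrocyte markers (11) summed to 5938 to 6384, 7426 to 7832 and 9114 to 9397, with Ntsr2 at 0 in all groups. Against tumours, 2 of 10 tested endothelial markers rose and 3 fell in the bioink, and 5 of 10 astrocyte markers rose and 2 fell. Whether these cells had a part in the differences below was not tested. In bulk RNA, fewer dividing cells and less mitotic RNA per cell cannot be told apart.

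As a set, the mitosis genes were highest in 2D culture, and tumours and bioink lay closer to each other than to it. Single genes rose or fell between tumours and bioink, as given below. As a share of all deposited values, the 48 genes made up 0.255%, 0.248% and 0.252% in the tumours, 0.621%, 0.623% and 0.637% in 2D culture, and 0.291%, 0.304% and 0.307% in the bioink. The bioink shares lay above those of the tumours, and they are taken of lower library sums. In 2D culture against tumours, 40 of the 48 genes rose and 0 fell, where 54.3% of all tested genes were called (27.3% higher, 27.0% lower). Their median log2 difference was 1.26, against 0.01 for all tested genes. All 3 libraries of 2D culture lay above all 3 tumours for 42 genes and below them for 0, where 32.2% and 31.7% of all tested genes did so. In the bioink against 2D culture, 40 fell and 0 rose, where 59.2% of all tested genes were called (27.0% higher, 32.2% lower), and the median was -1.33 against -0.02. Here 42 genes lay below without overlap and 1 above (background 35.6% and 31.5%).

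In the bioink against tumours the list split. Of 48 genes, 15 rose, 18 fell and 15 were not called, where 64.4% of all tested genes were called (27.1% higher, 37.3% lower), so the members' shares (31.2% and 37.5%) were close to the background. Without overlap, 18 lay above the tumours and 21 below (background 28.7% and 38.9%). Their median log2 difference, -0.13, also lay beside that of all tested genes, -0.11. This split depended on scaling: with equal library totals 22 rose and 12 fell, and all tested genes went to 35.5% higher and 27.7% lower. With equal upper quartiles or quantile normalization, 20 rose and 14 fell. Falls lost under at least 1 of these scalings were those of Ccnb2, Nek2, Cenpa, Racgap1, Ube2c and Foxm1. Rises gained under each of these scalings were those of Ccnb1, Mad2l1, Kif23, Mki67 and Smc4, and equal totals also gained those of Cdk1 and Tpx2. By group mean, 25 genes ran from 2D culture through tumour to bioink, an order held by 19.1% of all tested genes. Another 19 ran from 2D culture through bioink to tumour, an order held by 12.8%. The exceptions were Cenpf, Hmmr and Smc4, with the bioink first and the tumour last, and Kif20b, with the bioink first and 2D culture last.

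**Figure D1:**
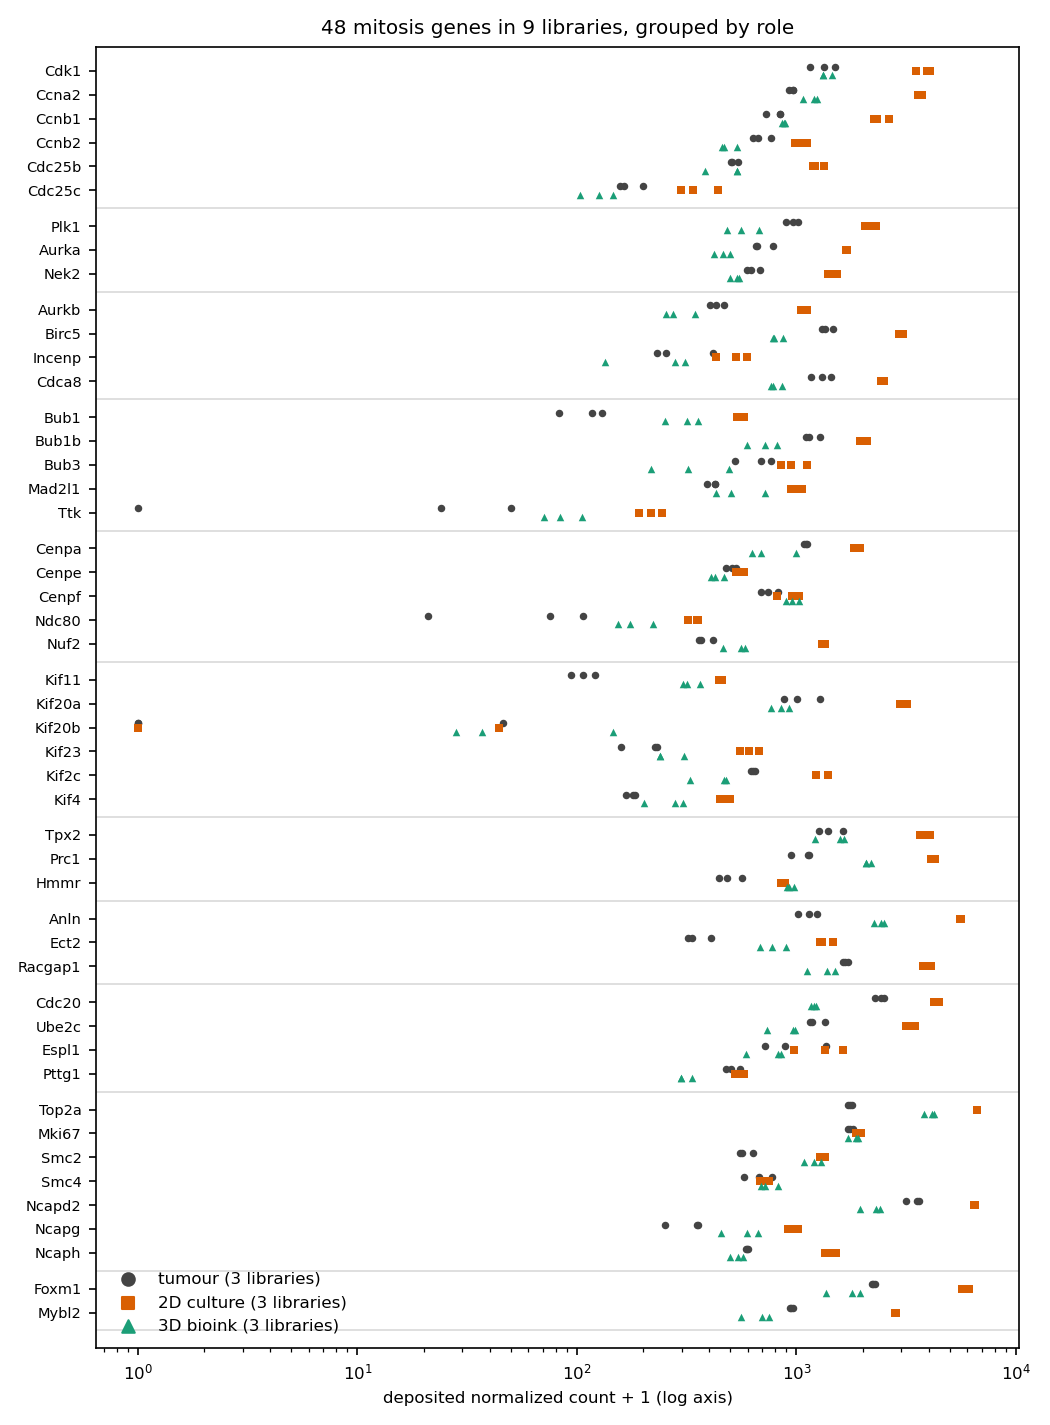
Deposited normalized count + 1 (log axis) of the 48 mitosis genes in each of 9 libraries, grouped by role in the order of the text; each point is 1 library. The 2D culture libraries lie to the right of the tumours without overlap for 42 genes, and bioink libraries fall on either side of the tumours.

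CDK1 and its partners rose in 2D culture against tumours in 6 of 6 cases, where 27.3% of all tested genes rose. They fell from 2D culture to bioink in 6 of 6, where 32.2% of all tested genes fell. Cdk1, the kinase that drives entry, was at 1157, 1495 and 1327 in the tumours, 4045, 3910 and 3485 in 2D culture and 1456, 1324 and 1320 in the bioink. Tumour and bioink libraries overlapped, and all 2D libraries lay above them: the ratio of means was 2.88 against tumours (limma log2 1.53 ± 0.097 SE, adjusted p = 6.61e-07). Ccna2, cyclin A2, was at 959, 928 and 967 in the tumours, 3617, 3559 and 3718 in 2D culture and 1203, 1239 and 1074 in the bioink. It rose in both cultures, by 1.93 on the log2 scale in 2D culture and by 0.30 in the bioink (limma adjusted p = 7.58e-09 and 0.00237). Ccnb1, cyclin B1, was at 723, 841 and 844 in the tumours, 2316, 2248 and 2634 in 2D culture and 861, 883 and 873 in the bioink. The bioink did not overlap the tumours but was not called as deposited (log2 0.12, 95% interval -0.06 to 0.31). It was called higher with quantile normalization, equal totals and equal upper quartiles (log2 0.30, 0.39 and 0.31). Ccnb2, cyclin B2, went the other way and fell by 0.50 on the log2 scale from tumour to bioink. Cdc25b, a phosphatase that activates CDK1, was at 540, 505 and 504 in the tumours, 1193, 1213 and 1327 in 2D culture and 381, 534 and 532 in the bioink. Cdc25c, its relative, was at 156, 198 and 163 in the tumours, 437, 296 and 335 in 2D culture and 125, 102 and 145 in the bioink. Both phosphatases rose in 2D culture, with log2 differences of 1.27 and 1.03, and neither was called between bioink and tumours.

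The other mitotic kinases and the chromosomal passenger complex were higher in 2D culture and, as deposited, mostly lower in the bioink than in either other group. In the bioink against tumours 3 of 3 kinases and 3 of 4 passenger genes fell, where 37.3% of all tested genes fell. Plk1, polo-like kinase, needed for centrosome maturation and entry, was at 1014, 965 and 897 in the tumours, 2046, 2309 and 2133 in 2D culture and 481, 556 and 671 in the bioink. The 3 groups did not overlap: the log2 difference was 1.17 ± 0.11 SE from tumour to 2D culture and -0.76 ± 0.11 from tumour to bioink (limma adjusted p = 1.4e-05 and 0.000237). Aurka, the centrosomal Aurora kinase, was at 651, 780 and 660 in the tumours, 1684, 1675 and 1690 in 2D culture and 464, 495 and 419 in the bioink. It fell by 0.60 on the log2 scale from tumour to bioink, and Nek2, a centrosome kinase, by 0.26. Aurkb, the Aurora kinase of the passenger complex, which corrects faulty attachments, was at 403, 429 and 468 in the tumours, 1117, 1071 and 1045 in 2D culture and 253, 273 and 344 in the bioink. Birc5, the survivin subunit that brings the complex to centromeres, was at 1310, 1460 and 1346 in the tumours, 2926, 3055 and 3051 in 2D culture and 865, 792 and 778 in the bioink. Each of them fell from tumour to bioink (log2 -0.59 and -0.76), as did Cdca8, the borealin subunit (log2 -0.69). The fall of Nek2 was not called with quantile normalization, equal totals or equal upper quartiles. With the correction for GC content and length described below, the falls of Aurka, Nek2, Aurkb and Cdca8 were not called. Incenp, the scaffold of the complex, varied most: its tumour libraries ran from 231 to 414, and it was called only between bioink and 2D culture (log2 -1.18, limma adjusted p = 0.0108).

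Of 5 spindle checkpoint genes, 4 rose in 2D culture against tumours (background 27.3%), and in the bioink 2 rose and 2 fell (background 27.1% and 37.3%). Bub1, a kinetochore kinase of the checkpoint, was at 129, 116 and 82 in the tumours, 533, 577 and 549 in 2D culture and 250, 316 and 355 in the bioink. It rose in both cultures, with log2 differences of 2.36 ± 0.19 SE in 2D culture and 1.5 ± 0.19 SE in the bioink. Bub1b, the BUBR1 subunit of the mitotic checkpoint complex, was at 1138, 1280 and 1107 in the tumours, 2032, 1954 and 2084 in 2D culture and 595, 811 and 721 in the bioink. Its bioink libraries lay below all tumours (log2 -0.74 ± 0.11 SE, limma adjusted p = 0.000205). Bub3, which binds both of these proteins, was at 686, 526 and 764 in the tumours, 1116, 846 and 939 in 2D culture and 490, 217 and 321 in the bioink. It fell by 1.00 on the log2 scale from tumour to bioink and was not called in 2D culture (limma adjusted p = 0.0985). Mad2l1, the MAD2 protein that captures CDC20, was at 426, 389 and 423 in the tumours, 1059, 942 and 980 in 2D culture and 720, 430 and 504 in the bioink. The difference from tumours was called in 2D culture (log2 1.27) and not in the bioink (log2 0.38, limma adjusted p = 0.0614). The bioink difference was called with quantile normalization, equal totals and equal upper quartiles (log2 0.58, 0.65 and 0.57), with array weights (log2 0.29, limma adjusted p = 0.0352), with the replicate block (limma adjusted p = 0.0317) and without bioink replicate 2 (log2 0.55). Ttk, the MPS1 kinase at the top of the checkpoint, was at 23, 49 and 0 in the tumours, 244, 217 and 191 in 2D culture and 70, 83 and 104 in the bioink. One tumour library listed it at 0, so its log2 differences of 4.35 and 3.01 carried standard errors of 1.1, and the bioink call was lost when any 1 library of either culture was left out (limma adjusted p = 0.0574 to 0.0997).

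Of 5 centromere and kinetochore genes, 3 rose and 1 fell in the bioink against tumours (background 27.1% and 37.3%). Both subunits of the NDC80 complex on the list rose in both cultures. Ndc80, the subunit that grips microtubules, was at 20, 105 and 74 in the tumours, 320, 351 and 356 in 2D culture and 220, 173 and 153 in the bioink. Its log2 difference was 2.64 ± 0.49 SE in 2D culture and 1.72 ± 0.49 in the bioink. Without tumour replicate 1, the library at 20, these were 1.94 and 1.02, and without tumour replicate 2 they were 3.11 and 2.19, called in each case. Nuf2, its partner, rose by 1.81 and 0.49. Cenpa, the histone H3 variant of centromeres, was at 1081, 1114 and 1108 in the tumours, 1936, 1836 and 1892 in 2D culture and 994, 689 and 627 in the bioink. It rose in 2D culture (log2 0.78) and fell in the bioink (log2 -0.54). Cenpe, the kinetochore kinesin that moves chromosomes to the spindle equator, was at 478, 506 and 528 in the tumours, 577, 528 and 539 in 2D culture and 468, 423 and 409 in the bioink. This gene was called only between bioink and 2D culture (log2 -0.34, limma adjusted p = 0.00838), and the call was lost with quantile normalization, equal totals and equal upper quartiles (limma adjusted p = 0.0595, 0.201 and 0.131). Its difference between bioink and tumours (log2 -0.22, limma adjusted p = 0.0545) passed the threshold without tumour replicate 1 or bioink replicate 1 (limma adjusted p = 0.0495 and 0.021). Cenpf, a large kinetochore protein that accumulates in G2, was at 740, 691 and 820 in the tumours, 956, 810 and 1027 in 2D culture and 897, 1023 and 956 in the bioink. Cenpf was close in both cultures (log2 difference 0.05, 95% interval -0.19 to 0.28) and higher in each than in tumours, by 0.35 and 0.31 (limma adjusted p = 0.0134 and 0.0306). The bioink call was lost without tumour replicate 2 (limma adjusted p = 0.0508), and the 2D call without tumour replicate 1 or 2 or 2D replicate 1 or 3 (limma adjusted p = 0.0727 to 0.118).

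Among 6 kinesins and 3 other spindle proteins, 8 rose in 2D culture against tumours (background 27.3%) and Kif20b did not. Kif11, the motor that pushes spindle poles apart, was at 120, 106 and 93 in the tumours, 454, 444 and 459 in 2D culture and 302, 317 and 362 in the bioink. It rose by 2.09 ± 0.13 and 1.61 ± 0.13 on the log2 scale in 2D culture and bioink. Kif4, a chromosome-bound motor, also rose in both cultures (log2 1.43 and 0.55). Kif2c, which removes faulty attachments, rose in 2D culture (log2 1.01) and fell in the bioink (log2 -0.60). Kif20a and Kif23, both needed for cytokinesis, rose in 2D culture (log2 1.56 and 1.59) and were not called between bioink and tumours as deposited. Kif20b, a further cytokinesis kinesin, was at 45, 0 and 0 in the tumours, 0, 0 and 43 in 2D culture and 36, 27 and 145 in the bioink. With 2 tumour and 2 2D libraries listed at 0, no comparison of it was called and its standard error was 1.8 on the log2 scale. Prc1, which bundles the central spindle, rose in 2D culture and bioink (log2 1.97 and 0.98). Tpx2, which activates Aurora A, rose as deposited in 2D culture only by the test (log2 1.44, and 0.05 in the bioink). Hmmr, a spindle pole protein, rose in both cultures (log2 0.80 and 0.91), and bioink minus 2D culture was 0.12 with a 95% interval of -0.10 to 0.33.

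Of the 3 cleavage furrow genes 2 rose and 1 fell in the bioink against tumours, and of the 4 anaphase and APC/C genes 3 fell and 0 rose. Over all tested genes 27.1% rose and 37.3% fell. Anln, anillin, the scaffold of the contractile ring, was at 1239, 1012 and 1143 in the tumours, 5547, 5627 and 5611 in 2D culture and 2432, 2258 and 2502 in the bioink. All 3 groups were apart, with log2 differences from tumours of 2.31 ± 0.075 SE in 2D culture and 1.09 ± 0.075 in the bioink (limma adjusted p = 6.6e-09 and 1.13e-06). Ect2, which activates RhoA at the furrow, rose likewise (log2 1.93 and 1.15), while Racgap1, its partner, rose in 2D culture and fell in the bioink (log2 1.23 and -0.34). Cdc20, the APC/C activator of anaphase, was at 2503, 2423 and 2274 in the tumours, 4248, 4349 and 4478 in 2D culture and 1162, 1197 and 1230 in the bioink. It had the largest fall from tumour to bioink with Bub3, a log2 difference of -1.0 ± 0.054 SE (limma adjusted p = 2.26e-07). Ube2c, the ubiquitin-conjugating enzyme of the APC/C, was at 1353, 1180 and 1147 in the tumours, 3201, 3166 and 3467 in 2D culture and 730, 968 and 983 in the bioink. Pttg1, securin, was at 502, 474 and 549 in the tumours, 576, 526 and 534 in 2D culture and 333, 296 and 296 in the bioink. Both fell from tumour to bioink (log2 -0.47 and -0.72), and Pttg1 was not called between 2D culture and tumours (log2 0.10, limma adjusted p = 0.405). Espl1, separase, had tumour values from 714 to 1356 and was called only between bioink and 2D culture (log2 -0.79), a call lost without 2D replicate 1 or 3 or bioink replicate 3.

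Of 7 chromosome structure genes, 5 rose in 2D culture against tumours (background 27.3%), and in the bioink 3 rose and 1 fell (background 27.1% and 37.3%). Top2a, the topoisomerase that untangles sister chromatids, was at 1709, 1797 and 1751 in the tumours, 6627, 6660 and 6613 in 2D culture and 3819, 4138 and 4219 in the bioink. Its groups were far apart, with log2 differences from tumours of 1.92 ± 0.05 SE in 2D culture and 1.21 ± 0.05 in the bioink (limma adjusted p = 1.58e-09 and 4.49e-08). The condensin subunits differed among themselves. Smc2 rose in both cultures (log2 1.17 and 1.03), and its partner Smc4 was called in no comparison as deposited. With quantile normalization, equal totals and equal upper quartiles, Smc4 was called higher in the bioink than in tumours (log2 0.32, 0.41 and 0.33). Smc4, the other condensin ATPase, was at 577, 673 and 769 in the tumours, 710, 746 and 681 in 2D culture and 819, 715 and 690 in the bioink. Ncapd2, a condensin I subunit, was at 3632, 3140 and 3526 in the tumours, 6472, 6462 and 6461 in 2D culture and 1955, 2313 and 2403 in the bioink. Ncapd2 rose in 2D culture and fell in the bioink (log2 0.92 and -0.63), whereas Ncapg rose in both (log2 1.62 and 0.84) and Ncaph rose in 2D culture alone by the test (log2 1.26). Both transcription factors of the list fell from tumour to bioink as deposited (log2 -0.42 for Foxm1 and -0.52 for Mybl2). The Foxm1 call was lost with quantile normalization, equal totals and equal upper quartiles (log2 -0.24, -0.16 and -0.24; limma adjusted p = 0.0779, 0.23 and 0.0871). Foxm1 was at 2210, 2285 and 2231 in the tumours, 5655, 5720 and 6130 in 2D culture and 1359, 1939 and 1781 in the bioink. Mybl2, which encodes B-MYB, was at 942, 938 and 965 in the tumours, 2809, 2831 and 2845 in 2D culture and 555, 752 and 697 in the bioink. Mybl2 had the largest called fall from 2D culture to bioink of the 48 genes (log2 -2.09 ± 0.099 SE, limma adjusted p = 1.35e-07).

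**Figure D2:**
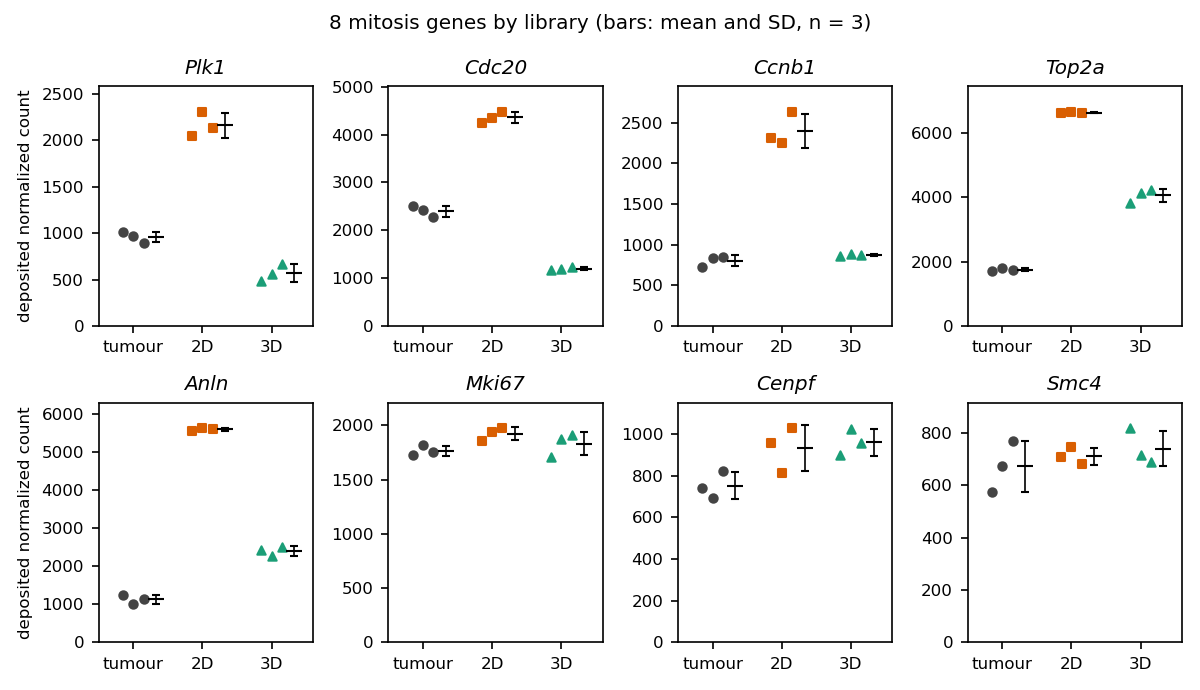
Deposited normalized count (axis from 0) of 8 mitosis genes in each library, with mean and SD of 3 libraries beside the points. Plk1, Cdc20, Ccnb1, Top2a and Anln are highest in 2D culture, while Mki67 stays between 1710 and 1974 in all 9 libraries, Smc4 shows overlapping groups, and Cenpf overlaps between 2D culture and each other group but not between bioink and tumours.

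Mki67, the surface protein of mitotic chromosomes whose product Ki-67 is the usual proliferation stain, did not follow the list. Mki67 was at 1724, 1817 and 1754 in the tumours, 1858, 1936 and 1974 in 2D culture and 1710, 1871 and 1910 in the bioink. The means were 1765 ± 47.5, 1923 ± 59.1 and 1830 ± 106 (SD, n = 3). Its log2 difference from tumours was 0.12 in 2D culture, with a 95% interval of -0.01 to 0.26 (limma adjusted p = 0.106), where the median of the list was 1.26. The 2D difference passed the threshold without bioink replicate 1 (log2 0.12, limma adjusted p = 0.0412) and with equal library totals (log2 0.19, limma adjusted p = 0.02). From 2D culture to bioink it was -0.07, with an interval of -0.20 to 0.06. From tumour to bioink it was 0.05 (-0.08 to 0.18) as deposited, and it was called with equal totals, equal upper quartiles and quantile normalization (log2 0.31, 0.23 and 0.23). Taken against the mean log2 value of the other 47 genes in the same library, a measure free of scaling between libraries, Mki67 stood 1.60, 1.76 and 1.85 above them in the tumours, 0.54, 0.64 and 0.51 in 2D culture and 1.57, 1.65 and 1.59 in the bioink. It equalled 4.33% to 4.68% of their summed values in the tumours, 1.94% to 2.03% in 2D culture and 4.54% to 4.77% in the bioink. Since Mki67 was singled out with its values known, this is a description. It had company: the highest group mean was under 1.5 times the lowest for 4 of the 48 genes, Mki67 (1.09), Smc4 (1.10), Cenpe (1.26) and Cenpf (1.28), and for 21.5% of all tested genes. The median ratio was 2.99 over the mitosis genes and 2.04 over all tested genes. Mki67, Smc4 and Kif20b were the 3 members with no call in any comparison as deposited.

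The direction of the bioink against the tumours ran with the base composition of the transcripts. GC content was taken from the annotated transcript with the longest coding sequence (GENCODE vM21, GRCm38) and ran from 39.4% to 56.3% over the 48 genes. Of the 16 genes lowest in GC, 11 rose and 0 fell, with a median log2 difference of 0.97, and they include Top2a, Bub1, Kif11 and Ndc80. Of the 16 highest in GC, 0 rose and 13 fell, with a median of -0.59, among them Plk1, Cdc20, Foxm1 and Mybl2. The middle 16 held 4 rises and 5 falls. Over all tested genes, whatever their GC, 27.1% rose and 37.3% fell. Spearman's rho between GC and the log2 difference was -0.80 over the 48 genes, and -0.78 without Kif20b, against -0.31 over 13662 tested genes with an annotated transcript. The trend was not particular to the 48: rho was -0.61 over 87 further mitosis genes and -0.65 over 46 S phase genes, both described below. These points share libraries and are no replicates. For the bioink against 2D culture rho was -0.75 (-0.15 over all tested genes), and for 2D culture against tumours it was -0.21 (-0.20). The further mitosis genes had -0.44 and -0.25 in these 2 comparisons, and the S phase genes -0.32 and -0.51. Transcript length gave 0.53, 0.59 and -0.02 over the 48 genes for the same 3 comparisons, against 0.34, 0.28 and 0.08 over all tested genes.

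**Figure D3:**
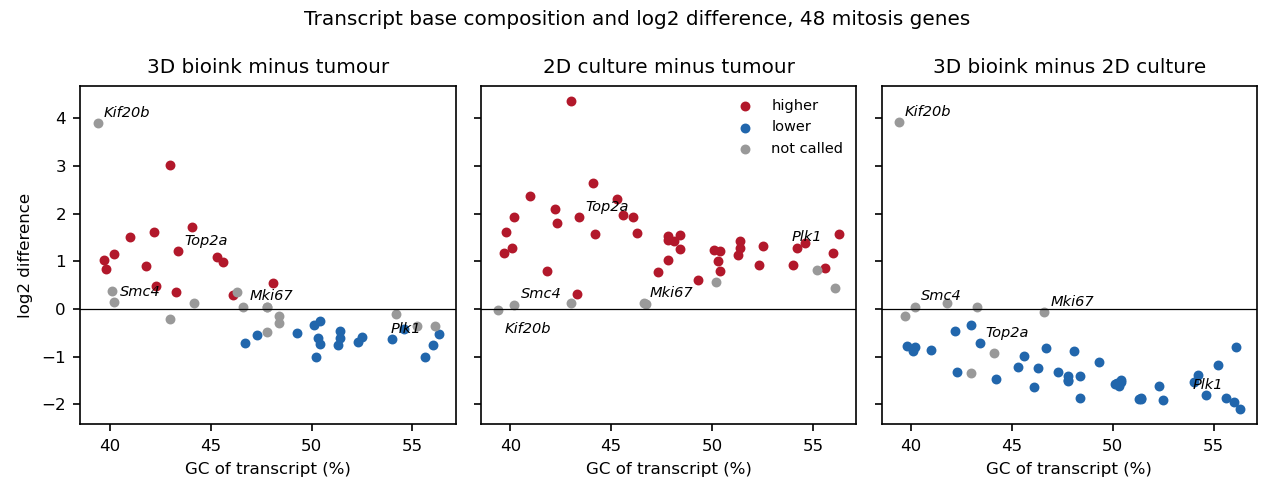
Log2 difference of each of the 48 genes against the GC content of its transcript (percent), in 3 comparisons; red points were called higher, blue lower and grey not called. In the bioink minus tumour panel the points run from above 0 at low GC to below 0 at high GC, and in the 2D culture minus tumour panel 40 genes are called higher across the whole range.

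With each library's trend on GC content and length over all tested genes removed, an alternative chosen after the data were seen, the rise in 2D culture remained and single genes in the bioink moved. In 2D culture against tumours 40 rose and 1 fell, and in the bioink against 2D culture 0 rose and 44 fell. Against tumours the bioink then had 8 genes higher and 16 lower. Of the 33 genes called as deposited, 18 kept their call, 14 lost it and Cenpf turned (log2 -0.68, limma adjusted p = 0.000474). Top2a, Bub1, Kif11 and Anln stayed higher in the bioink (log2 0.51, 0.90, 0.87 and 0.59), and Plk1, Cdc20 and Bub1b stayed lower (log2 -0.33, -0.49 and -0.72). The rises of Ccna2, Ttk, Nuf2, Kif4, Smc2 and Ncapg and the falls of Ccnb2, Aurka, Nek2, Aurkb, Cdca8, Cenpa, Racgap1 and Ube2c were the 14 calls lost. Among them Aurka was at log2 -0.21 (limma adjusted p = 0.0856), Aurkb at -0.16 (limma adjusted p = 0.243), Cenpa at -0.27 (limma adjusted p = 0.118) and Ube2c at 0.11 (limma adjusted p = 0.455). Mki67 then fell from tumours to bioink (log2 -0.82, limma adjusted p = 2.47e-06) and from 2D culture to bioink (log2 -0.83, limma adjusted p = 2.22e-06), while between 2D culture and tumours it remained uncalled (log2 0.01, limma adjusted p = 0.907). Such a trend holds both technical and biological differences, which cannot be told apart here.

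Other genes of the cell cycle were listed apart from the 48. These lists were not put through the other scalings or the GC correction, so their counts hold for the deposited values only. Of 87 tested further mitosis genes, 71 rose and 1 fell in 2D culture against tumours (median log2 1.08, background 27.3% and 27.0%). In the bioink against 2D culture 3 rose and 68 fell (median -1.32, background 27.0% and 32.2%). Against tumours the bioink held 28 rises and 34 falls (median -0.11), close to the background again. Mastl, the Greatwall kinase that restrains a CDK1-opposing phosphatase, was at 82, 113 and 99 in the tumours, 391, 367 and 390 in 2D culture and 354, 357 and 370 in the bioink, and rose in both cultures (log2 1.97 and 1.88). Bora, the cofactor with which Aurora A activates PLK1, was at 144, 74 and 63, then 364, 326 and 344, then 9, 12 and 37 in the same order, so it rose in 2D culture and fell in the bioink (log2 1.96 and -2.38). The 1 gene that fell in 2D culture was Numa1, a spindle pole protein that is also abundant in interphase nuclei (log2 -0.57).

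Genes of S phase, which precedes mitosis, were mostly lowest in the bioink as deposited. Of 46 tested, 38 rose and 0 fell in 2D culture against tumours (median log2 0.79, background 27.3% and 27.0%). In the bioink against 2D culture 0 rose and 44 fell (median -1.42, background 27.0% and 32.2%). Against tumours 6 rose and 31 fell in the bioink (13% and 67.4%, background 27.1% and 37.3%). The median was -0.56, which lay further from that of all tested genes than the median of the mitosis genes did. This list was not put through the other scalings or the GC correction, so its contrast with the mitosis genes holds for the deposited values only. Mcm2, a subunit of the replicative helicase, was at 3216, 3369 and 3145 in the tumours, 4411, 4130 and 4554 in 2D culture and 1274, 1406 and 1472 in the bioink, a log2 difference of -1.23 ± 0.066 SE from tumour to bioink (limma adjusted p = 2.2e-07). Pcna, the sliding clamp, fell by 0.47 on the log2 scale, and Cdt1, a licensing factor, by 1.49. Rrm2, a ribonucleotide reductase subunit, rose in 2D culture (log2 1.95) and was at -0.02 between bioink and tumours. Pola1, a DNA polymerase alpha subunit, rose in both cultures (log2 0.92 and 0.71).

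The cohesin list holds the rings that join sister chromatids and their regulators. Of 13 genes, 10 rose and 1 fell in the bioink against tumours (median log2 0.59), where 27.1% and 37.3% of all tested genes did so. Against 2D culture 8 rose and 1 fell (median 0.45, background 27.0% and 32.2%). In 2D culture against tumours 9 rose and 3 fell (median 0.48, background 27.3% and 27.0%). The difference from the mitosis genes was not tested. Neither the cohesin list nor the APC/C list was put through the other scalings or the GC correction. Their counts hold for the deposited values only. Nipbl, the loader of cohesin, had the largest of the falls in 2D culture (log2 -1.13 against tumours). It was at 2832, 2899 and 3162 in the tumours, 1311, 1345 and 1389 in 2D culture and 3861, 3421 and 3464 in the bioink. Stag2, a ring subunit, rose in both cultures (log2 0.48 and 1.36). Of 17 APC/C subunits and regulators, 9 rose and 1 fell in 2D culture against tumours (background 27.3% and 27.0%). In the bioink against tumours 4 rose and 10 fell (background 27.1% and 37.3%). Cdc27, a core subunit, rose in both cultures (log2 1.27 and 1.26).

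Regulators upstream of mitosis were mixed in the deposited values. Their lists were not put through the other scalings or the GC correction, so small differences may depend on the scaling. Of 19 genes of the DREAM complex, MuvB and the E2F family, 9 rose and 1 fell in 2D culture against tumours (47.4% and 5.26%, background 27.3% and 27.0%). In the bioink against tumours 6 rose and 7 fell. The bioink shares, 31.6% higher and 36.8% lower, were close to the background of 27.1% and 37.3%. Rb1, the retinoblastoma protein that represses E2F targets, was at 237, 187 and 297 in the tumours, 193, 185 and 157 in 2D culture and 849, 547 and 754 in the bioink (log2 1.57 ± 0.21 SE from tumour to bioink, limma adjusted p = 9.2e-05). E2f8, a repressor of the family, rose in 2D culture and fell in the bioink (log2 1.5 and -0.64), and E2f1, an activator, was called in no comparison. Ccnd1, cyclin D1 of the G1 phase, was at 13715, 13577 and 13538 in the tumours, 20124, 19487 and 19420 in 2D culture and 10183, 9473 and 9365 in the bioink, so it rose in the first and fell in the second (log2 0.53 and -0.49). Of 10 tested G1 cyclins and CDKs, 7 rose and 2 fell in 2D culture against tumours (background 27.3% and 27.0%). In the bioink against tumours 3 rose and 6 fell (background 27.1% and 37.3%). Among 7 CDK inhibitors, 1 rose and 3 fell in the bioink against tumours (14.3% and 42.9%, background 27.1% and 37.3%). Cdkn1b, p27, rose (log2 0.65), and Cdkn1a, p21, and Cdkn2a were among the falls (log2 -0.22 and -0.81). The largest fall was that of Cdkn2d, with a wide error (log2 -4.65 ± 1.8 SE, limma adjusted p = 0.0467).

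**Figure D4:**
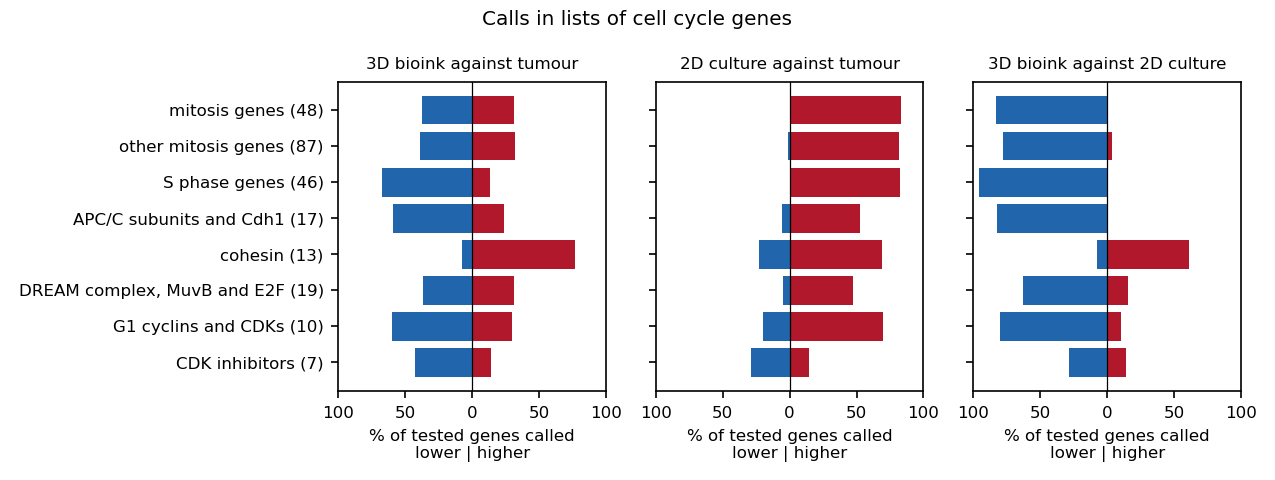
Percent of tested genes called higher (red, right) and lower (blue, left) in 8 lists of cell cycle genes and 3 comparisons; the number of tested genes stands beside each list. As deposited, mitosis genes reach 83.3% higher in 2D culture against tumours and 83.3% lower in the bioink against 2D culture, while cohesin is 76.9% higher in the bioink against tumours. Only the mitosis genes were put through the other scalings and the GC correction.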

How the data were processed

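Bulk RNA was sequenced from 9 libraries built by a strand-marking kit (25 to 75 ng of RNA, 14 cycles of amplification), as the labels' protocols state. The deposited values are a score, normalized counts that the authors rounded to whole numbers. The submitters' processing notes name kallisto, RSEM, DESeq, DESeq2 1.24.0 and the build mm10, without role or order. As no raw counts were used, limma 3.58.1 (R 4.3.3; trended eBayes, Benjamini-Hochberg adjustment) was fitted to log2(value + 1) of the 13773 genes with a mean of at least 10, in 1 model over 9 libraries, and tested on simulated data. All 48 members passed this filter. Values in every library are given for a fixed set of members and for the 5 largest called rises and falls of each comparison, and at most 2 rises and 2 falls are named from each other list, besides Pcna, Mcm2, Cdkn1a, Ccnd1 and E2f1. The members and lists were chosen with earlier results of these data known. Alternatives varied pseudocount, filter, scaling, weights, trend and libraries. Protein motifs were not examined.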

Additional observations from a re-analysis of the deposited data

How the results depend on the processing

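The counts of 40 higher in 2D culture against tumours and 40 lower in the bioink against 2D culture stayed within 39 to 43 and 37 to 44 under all alternatives. Bioink against tumours was the least stable. Its median log2 difference of -0.13 reversed with quantile normalization (0.04), equal totals (0.13) and equal upper quartiles (0.05), where the medians of all tested genes moved from -0.11 to 0.04, 0.14 and 0.07. It was -0.03 with array weights and -0.18 to 0.01 with 1 library left out, 0.01 being without bioink replicate 1, and correction for GC and length left 8 genes higher. The 2D culture median moved to 1.33 with equal totals, and that correction called 1 gene, Smc4, lower in 2D culture. The bioink against 2D culture median moved to -1.19, -1.14, -1.17 and -1.22 (quantile, totals, upper quartiles, array weights). In this comparison 1 gene was higher under each of these, Hmmr or, with array weights, Kif20b. Leaving out 1 library gave 14 to 16 higher and 18 to 20 lower for bioink against tumours, 39 to 43 and 0 to 0 for 2D culture against tumours, and 0 to 1 and 39 to 41 for bioink against 2D culture (medians -1.38 to -1.23). Mki67 relative to the other members ranged over -0.20 to -0.08, -1.24 to -1.12 and 1.01 to 1.08. This measure was not taken after the GC and length correction. That correction put Mki67 itself at -0.82 in the bioink against tumours and -0.83 against 2D culture, where the list medians were -0.17 and -1.3.

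With 1 library left out, only Cenpf, Ttk and Espl1 lost calls, and 12 members gained one in some comparison. Single genes reversed as follows, and the cause was not tested. In the bioink against tumours Cdc25b became positive (quantile 0.06, totals 0.15, upper quartiles 0.07, array weights 0.03, GC 0.16, without bioink replicate 1 0.05), Cenpe 0.04 (totals) and Ube2c 0.11 (GC), while Cdk1 became -0.01 (array weights), -0.22 (GC) and -0.04 (without tumour replicate 1). GC correction also turned Mki67 (-0.82), Ccnb1 (-0.07), Mad2l1 (-0.65), Cenpf (-0.68) and Smc4 (-0.65). In 2D culture against tumours it turned Cenpe (-0.13) and Smc4 (-0.26; -0.02, without tumour replicate 1, to 0.19 with a library left out), and Kif20b was 0.18 with quantile normalization and -1.84 to 1.82 with a library left out. In the bioink against 2D culture Mki67 was 0.13, 0.13 and 0.10 (quantile, totals, upper quartiles), Smc4 -0.04 (array weights), -0.39 (GC) and -0.02 (without bioink replicate 1), and Cenpf -0.85 (GC) and -0.05 (without 2D replicate 2) to 0.12 with a library left out. Mki67 was called higher in the bioink than in tumours under those 3 scalings.

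With the replicate number as a block, 16 rose and 18 fell in the bioink against tumours, 41 and 0 in 2D culture, and 0 and 40 in the bioink against 2D culture. Deviations from the group means correlated at -0.033 to 0.08 between same-numbered libraries and at -0.063 to 0.052 between others. Between bioink and tumours the same-numbered values were 0.034, 0.048 and 0.08, and the others were at most 0.009. The best match of a library in another group had its number in 9 of 18 cases. Values this low cannot settle whether same-numbered libraries were paired. Depth is unknown, and low genes such as Kif20b and Ttk have values near 0 in some libraries.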
